A study of Mus musculus with 96 samples.

Results

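The replication-coupled histone chaperones are proteins that carry, store or place histones while DNA is copied, and 10 of their genes were chosen by name from the 55487 genes of the count table. They were the CAF-1 genes Chaf1a, Chaf1b and Rbbp4, the ASF1 genes Asf1a and Asf1b, Nasp, the FACT genes Ssrp1 and Supt16, Npm1, and Tonsl. Each symbol matched 1 row. The study asked how the daughters of a dividing olfactory stem cell come to differ, and for this it sequenced the RNA of both daughters of single divisions. Horizontal basal cells (HBCs), the reserve stem cells at the base of the olfactory epithelium (OE), were grown in primary culture from the OE of wild type adult mice aged 6 to 8 weeks. The tissue was taken 2 days after methimazole, a drug that injures the OE. In the study's methods, cultured cells were moved from a tropoelastin to a fibronectin coating, on which they flatten.

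The 96 cells were 48 pairs of sisters picked by hand after division, and all of them shared this genotype, drug and culture. No uninjured tissue, other treatment or undivided cell was sequenced, and no label gives a mouse, a culture or a batch. Cells of 1 condition are not replicates of a condition, so the values below are descriptions without a test. The intervals given are exact Clopper-Pearson 95% intervals on numbers of cells or of pairs. Those over cells treat sisters as independent, although sisters share a mother cell, and may be too narrow. None of them covers differences between mice or cultures, or error in the reads, which carry no molecular identifiers.

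As a replication fork moves, nucleosomes ahead of it are opened and new ones are assembled behind it from parental and newly made histones. ASF1 passes H3-H4 to CAF-1, which the sliding clamp PCNA holds at the fork and which deposits them on the new DNA. NASP guards a soluble store of H3-H4, FACT loosens and rebuilds nucleosomes at forks and along transcribed genes, and TONSL reads histones that mark freshly copied chromatin. HBCs are mostly at rest in the intact OE and divide after injury.

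The cells held 29454150 to 44849003 counts on genes (median 36152760), with 11403 to 14632 genes counted per cell. ERCC spike-in RNA, of which every lysed cell received an equal amount, took 1.06% to 5.75% of the counts. The HBC markers Trp63, Krt5, Krt14 and Itgb4 were counted in all 96 cells and Icam1 in 86. Of 22 markers of other OE cell types and of other cells, 5 (Kit, Cyp1a2, Ermn, Stoml3 and Sox10) were at 0 in every cell. The summed counts of the HBC markers ran from 9041 to 596071, while the sums of the other types had medians of 0 or 3. Their highest sums were 1296 for globose basal cells, 361 for sustentacular cells, 2107 for olfactory sensory neurons, 664 for microvillous cells and 2134 for other cells of the tissue, among which the endothelial marker Pecam1 was counted in 92 cells at a median count of 3. No 2 cells were near copies of each other, since the highest correlation between the log values of any 2 cells was 0.733.

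The CAF-1 genes were present in nearly all cells at middling levels. Levels are given in TPM, a share of all transcripts that corrects for transcript length and so allows genes to be compared. Chaf1a encodes the large subunit of CAF-1 (chromosome 17 from 56040439 to 56072289, GRCm38) and was counted in all 96 cells, at a lowest TPM of 0.101, a median of 31.7 and a highest of 142. Chaf1b encodes the middle subunit (chromosome 16 from 93883901 to 93906115) and was counted in 95 cells, at TPMs of 0 to 247 with a median of 41.4. Rbbp4 encodes the histone-binding subunit that CAF-1 shares with other chromatin complexes (chromosome 4 from 129307100 to 129335370). Its TPM had a lowest value of 4.59, a median of 69.1 and a highest of 168, so it had no cells near 0 while Chaf1b had 5 with fewer than 10 counts. Chaf1a shared 52.5% of its exon bases with the oppositely transcribed Ubxn6, whose summed count was 12.1% of that of Chaf1a, and reads from such a stretch cannot be assigned without strand. Rbbp4 shared 8.94% of its exon bases with Sync and 9.10% with Gm26722, both on the opposite strand.

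The ASF1 genes encode near relatives that hand H3-H4 on to the depositing chaperones, and the form encoded by Asf1b is the one known for its link to proliferation. Asf1b (chromosome 8 from 83955507 to 83970197) was counted in 94 cells, at TPMs of 0 to 274 with a median of 71.9. Asf1a (chromosome 10 from 53596757 to 53609225) was counted in 92 cells, at TPMs of 0 to 88.2 with a median of 16.2. Asf1b had the higher TPM in 79 of 96 cells and Asf1a in 17, or 17.7% (interval 10.7% to 26.8%). The 3′ part of Asf1a lies opposite Mcm9, with 48.0% of its exon bases shared and a summed Mcm9 count of 57.5% of that of Asf1a, so its values may hold reads of Mcm9.

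Nasp and the FACT genes were higher. Nasp (chromosome 4 from 116601052 to 116627941) was seen in every cell at a lowest TPM of 0.644, a median of 106.4 and a highest of 336. All but 1 cell had a Nasp TPM above 1, and that cell had 20 counts. Nasp shared 100-base stretches with Snf8, whose summed count was 20.5% of that of Nasp, and with Gm44044 (0.0152%). Ssrp1, which encodes the DNA-binding subunit of FACT (chromosome 2 from 85037234 to 85047109), had TPMs of 52.1 to 383 with a median of 247. Supt16, which encodes the large FACT subunit (chromosome 14 from 52160414 to 52197416), had TPMs of 6.45 to 221 with a median of 106.1. Although the subunits act as a dimer, the Ssrp1 transcript had the higher TPM in 90 of 96 cells, or 93.8% (interval 86.9% to 97.7%), by a median of 1.22 on the log2 scale. Supt16 shared 21.0% of its exon bases with Rpgrip1 on the opposite strand, with a summed Rpgrip1 count of 3.13% of that of Supt16.

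Npm1 and Tonsl stood at the ends of the range. Npm1 encodes nucleophosmin, an abundant nucleolar protein of ribosome assembly that also binds histones (chromosome 11 from 33152287 to 33163206), and its TPM was 152 to 2442 with a median of 1178. In each of the 96 cells Npm1 was above Ssrp1. Tonsl encodes a partner of MMS22L at forks (chromosome 15 from 76626002 to 76639958) and was counted in 60 of 96 cells, or 62.5% (interval 52.03% to 72.2%), with 10 or more counts in 44. Its TPM was 0 to 73.9 with a median of 0.138, so the cells divided between those with next to no Tonsl reads and those with up to 6442. Npm1 shared 100-base stretches with 5 processed pseudogenes whose counts came to 3.51% of its own, and Tonsl shared 1.72% of its exon bases with Vps28.

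**Figure D1:**
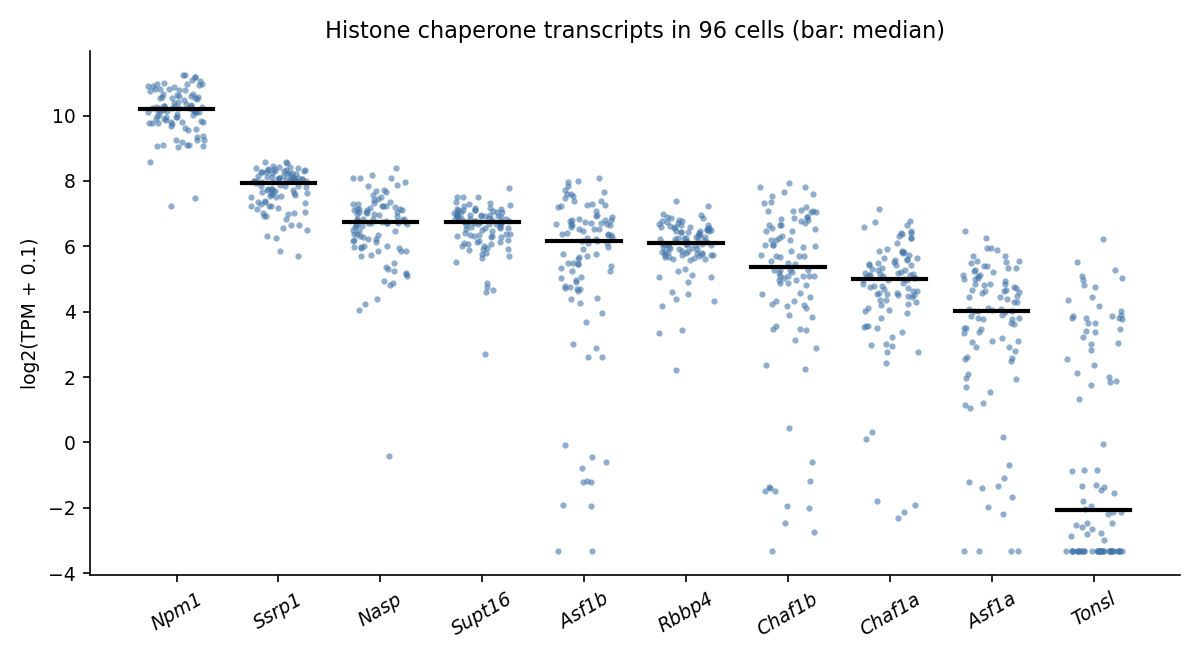
Levels of the 10 histone chaperone transcripts in 96 cultured HBCs, as log2(TPM + 0.1) on the vertical axis, with the genes ordered by median along the horizontal axis. Each point is 1 cell and each bar the median. Npm1 lies above all others, and Tonsl has its 36 cells with no count along the bottom.

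In order of median TPM the genes were Npm1, Ssrp1, Nasp, Supt16, Asf1b, Rbbp4, Chaf1b, Chaf1a, Asf1a and Tonsl. The middle 50% of cells did not overlap between Npm1 and Ssrp1 or between Ssrp1 and Nasp, and overlapped for each later pair of neighbours. Nasp was above Supt16 in 50 of 96 cells and Asf1b above Rbbp4 in 47 of 96, so these neighbours could not be put in an order. All 10 genes passed the filter on low counts, which asks for 10 counts in 10% of the cells, and their median TPM of 70.5 (median over the 10 genes) stood beside 7.12 over the 14463 genes that passed. The 6 genes Chaf1a, Rbbp4, Nasp, Ssrp1, Supt16 and Npm1 were counted in all 96 cells, which held for 31.8% of the genes that passed.

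The promoters of Nasp, Chaf1a and Chaf1b are printed because these members followed the S-phase genes most closely, and motifs for cell cycle transcription are read from such stretches. They are the 250 bases before the RefSeq start of transcription, from the RefSeq table on GRCm38.p6, 5′ to 3′ on the strand of the gene. They lie at chr4:116627952-116628201 (minus strand) for Nasp, chr17:56040166-56040415 (plus strand) for Chaf1a and chr16:93883651-93883900 (plus strand) for Chaf1b. Capitals mark CCAAT, bound by the factor NF-Y, or TTTGAA, the core of the cell cycle homology region (CHR), on either strand.
Nasp: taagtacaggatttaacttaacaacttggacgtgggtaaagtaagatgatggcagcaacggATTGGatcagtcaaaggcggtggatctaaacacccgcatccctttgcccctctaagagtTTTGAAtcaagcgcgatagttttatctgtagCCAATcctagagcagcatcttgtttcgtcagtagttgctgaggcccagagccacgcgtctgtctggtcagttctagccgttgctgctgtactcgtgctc
Chaf1a: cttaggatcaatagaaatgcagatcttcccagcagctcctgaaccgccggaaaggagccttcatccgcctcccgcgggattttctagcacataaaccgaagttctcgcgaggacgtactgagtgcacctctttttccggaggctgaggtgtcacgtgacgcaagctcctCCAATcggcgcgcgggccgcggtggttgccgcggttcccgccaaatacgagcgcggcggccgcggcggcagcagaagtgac
Chaf1b: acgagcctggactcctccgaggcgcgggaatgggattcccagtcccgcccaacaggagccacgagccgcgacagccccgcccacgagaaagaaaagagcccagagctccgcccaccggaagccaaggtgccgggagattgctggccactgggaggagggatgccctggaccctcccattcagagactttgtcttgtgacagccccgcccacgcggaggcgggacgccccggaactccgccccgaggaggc

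The search took in 300 bases (250 before to 50 after the start) of 9 windows of 8 members (Ssrp1 had 2) and also the E2F forms TTTGGCGC, TTTCCCGC, TTTCGCGC and TTTGCCGC. Nasp held TTTGAA and 2 CCAAT boxes, Chaf1a held 1 CCAAT box and Chaf1b neither. The Asf1b window held TTTGAA 14 bases before the RefSeq start and 4 CCAAT boxes. Across all 32851 promoter windows, 4 or more CCAAT boxes were found in 1.06%. However, 187 of the 250 bases before this Asf1b start were annotated in GENCODE M21 as untranslated parts of transcripts. Such overlaps also covered 204 bases for Asf1a, 177 for Supt16 and 217 for 1 window of Ssrp1. Matches in these windows may thus lie inside transcripts rather than upstream of them. CCAAT stood in 37.4% of all windows and TTTGAA in 17.9%. The listed E2F forms stood in 2.26% of all windows and, among the members, in 1 window of Ssrp1. Other spellings of the E2F site were not searched, so the other windows, such as that of Chaf1a, may still hold such a site. These matches describe the letters in the windows and say nothing on whether a factor was bound.

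Sister cells often differed in the chaperone transcripts, but seldom more than most genes did. Counts were divided by a size factor from the spike-in RNA (spike-in-normalized counts), and sisters were called different at a ratio of 1.5 or more, the cutoff the study uses. Asf1b differed in 38 of 48 pairs, or 79.2% (interval 65.01% to 89.5%). Asf1a differed in 34 pairs, Chaf1b in 31, Rbbp4 and Nasp in 27 each, Supt16 in 25 and Chaf1a in 24. Ssrp1 and Npm1 differed in the fewest, 18 pairs each, or 37.5% (interval 24.0% to 52.6%). Thus 8 of the 10 genes differed in 24 or more pairs, beside 79.8% of the genes that passed the filter, whose median was 34 pairs. Tonsl differed in 37 pairs with counts as they stand, which takes any count against 0 as a difference, and in 31 pairs with sisters under 3 counts set to that floor. It had fewer than 10 counts in both sisters of 19 pairs.

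The size of the sister differences set the genes apart more than their frequency. The ratio of the higher to the lower sister had a median of 1.30 for Npm1 and a highest value of 2.19. Ssrp1 had a median of 1.40 and a highest of 4.79, and Rbbp4 a median of 1.61 and a highest of 13.5. These genes had no pair in which a sister came near 0. Asf1b and Asf1a had medians of 2.56 and 2.61 and pairs in which a sister had next to no reads. In the pair numbered 1, a cell had 6489 Chaf1b counts and its sister 8. In the pair numbered 45, a cell had 3984 Asf1b counts and its sister 8, and in the pair numbered 26 the counts were 2331 and 0, at least 827-fold higher against a floor of 3 counts. For Asf1a, 4 pairs had a sister at 0 beside counts of 761 to 1477 in the other.

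**Figure D2:**
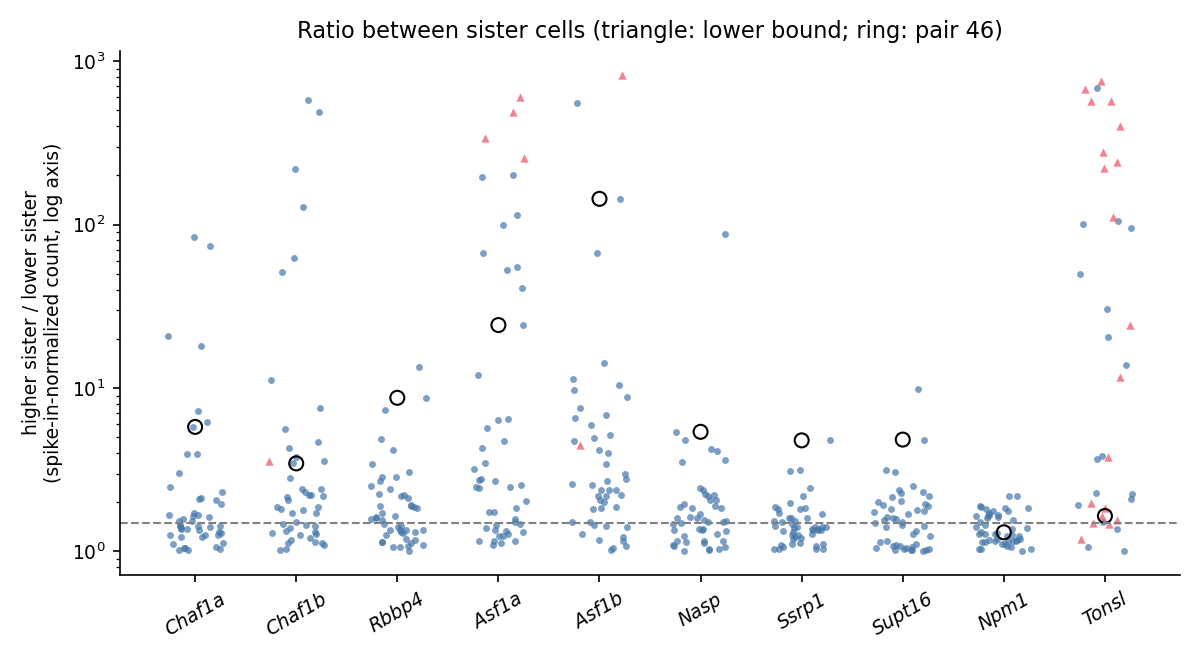
Ratio of the higher to the lower sister in spike-in-normalized counts (vertical log axis) for each of the 10 genes. Each point is a pair, triangles are ratios in which a sister with fewer than 3 counts was set to that floor, rings mark the pair numbered 46 and the dashed line is a ratio of 1.5. Npm1 stays within 2.19, while Chaf1b, Asf1a, Asf1b and Tonsl reach ratios above 500. Tonsl has 37 of 48 pairs with a ratio.

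The spike-in RNA gave the size of difference that arises at equal input. Against ERCC transcripts whose mean TPM was within 2-fold of the gene's, Npm1 differed in 18 pairs beside 0 to 11 for 5 ERCC transcripts, all of them counted in every cell and so among those that set the size factors. With library-total scaling Npm1 differed in 10 pairs and with the median of ratios over genes in 9. The ERCC transcripts were counted on the spike-in scale only. Whether Npm1 lies above them under the other scalings was therefore not tested. Chaf1a, with 24 pairs, differed in fewer than each of its 10 ERCC transcripts (32 to 40 pairs). The other 8 genes lay within the ERCC range, such as Asf1b with 38 beside 10 to 40 for 8 ERCC transcripts, and Ssrp1 with 18 beside 7 to 29 for 9. With library-total scaling Ssrp1 differed in 15 pairs and Supt16 in 19. Cells with few reads were compared in the same way. Asf1a had 6 cells with fewer than 10 counts and its 12 ERCC transcripts 7 to 71, Tonsl had 52 and its 11 ERCC transcripts 19 to 83, and Chaf1b had 5 beside 0 to 31 for its 10. Asf1a thus lay just below its ERCC range and the others inside theirs. Whether loss of RNA in handling played a part in the near-empty cells was not tested.

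How alike sisters were differed widely between the members. The intraclass correlation, the share of the variance of log2(normalized count + 1) that lies between pairs, was 0.78 for Npm1, 0.58 for Ssrp1, 0.57 for Chaf1a, and 0.52 for both Chaf1b and Nasp. These 5 genes reached 0.5, beside 6.9% of the genes that passed the filter, whose median was 0.16. It was 0.48 for Asf1b, 0.37 for Supt16, 0.36 for Tonsl, 0.18 for Rbbp4 and -0.18 for Asf1a. Differences in total RNA between pairs enter these values. With CPM, in which counts are scaled to the library total and which takes them out, Npm1 (0.79) and Chaf1a (0.53) still reached 0.5, 2 genes beside 4.4% of those that passed. Nasp was then at 0.47, Ssrp1 at 0.39 and Rbbp4 at -0.04. Sisters were thus alike in Npm1 and no more alike than cells of different pairs in Asf1a.

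Nasp and the CAF-1 genes Chaf1a and Chaf1b followed the genes of DNA replication from cell to cell. An S-phase score was taken as the mean of log2(CPM + 1) over 26 genes such as Mcm2, Mcm3, Pcna and Rrm2, none of them a member. Spearman's rho with this score over 96 cells was 0.76 for Nasp, 0.67 for Chaf1a, 0.62 for Chaf1b and 0.50 for Asf1b. These 4 genes reached 0.5, beside 0.499% of the other genes that passed the filter, whose median rho was 0.03. Supt16 followed at 0.46, Ssrp1 and Npm1 at 0.33, Tonsl at 0.28, Rbbp4 at 0.27 and Asf1a at 0.20. With the spike-in size factor, 5 genes reached 0.5 beside 0.991%, Supt16 (0.53) being the added one. The S-phase genes themselves, each a part of the score, had rho of 0.27 to 0.81 with it. The correlations describe 96 cells that share libraries made alike and, in pairs, a mother cell.

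**Figure D3:**
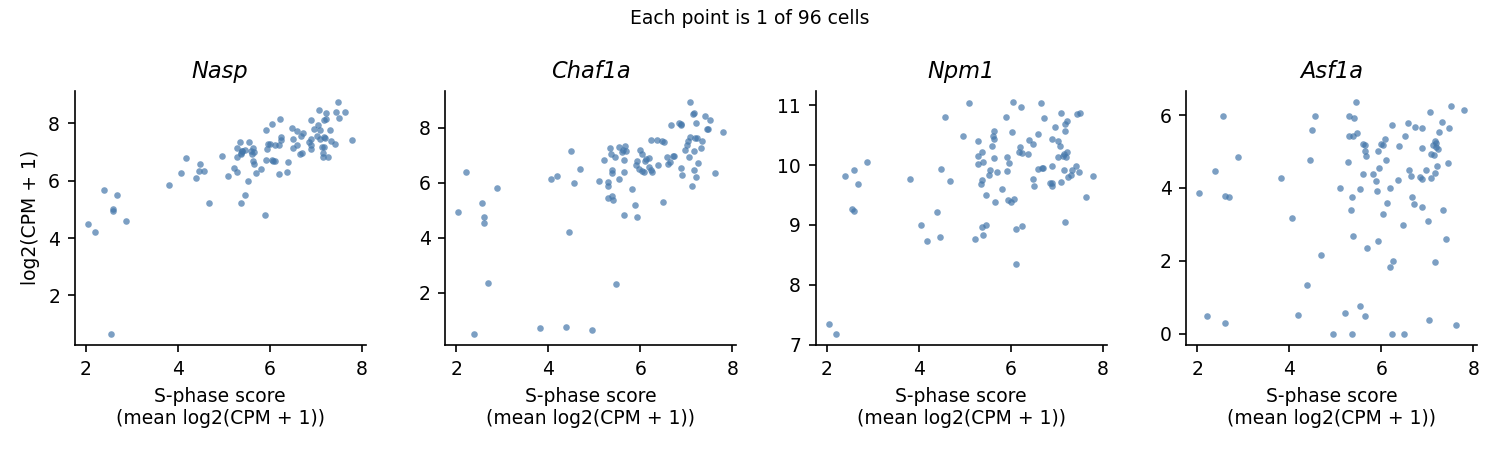
Level of Nasp, Chaf1a, Npm1 and Asf1a as log2(CPM + 1) (vertical axes, each with its own scale) against the S-phase score (horizontal axes, mean log2(CPM + 1) of 26 genes) in 96 cells, each a point. Nasp and Chaf1a are higher at higher scores (rho 0.76 and 0.67), whereas Asf1a is scattered (rho 0.20).

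Library depth and the mitochondrial share of counts moved with some of these values. The mitochondrial share, from 1.12% to 3.84% of counts, had a rho of -0.40 with Nasp, -0.36 with Chaf1b, -0.34 with Ssrp1 and -0.37 with the S-phase score itself. The library total had a rho of 0.06 with Nasp and 0.20 with Chaf1a. Their part in the correlations was not tested. The cells were also grouped here in 12 sets of 8 by the order of their pair numbers. Nothing says whether such a set was a plate, a culture or a day. After the spike-in values were centred within sets, the rho with the S-phase score reached 0.5 for 7 of the 10 genes. The median over the 10 genes was 0.55, against 0.49 uncentred. What share of all genes reaches 0.5 after centring was not determined. Sets held 36.8% of the variance of Tonsl and 22.4% of that of Chaf1a, beside a median of 13.5% over genes. Cells with 10 or more Tonsl counts numbered from 1 of 8 in some sets to 7 of 8 in others.

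The G2/M genes gave another picture. The score was the mean over 18 genes such as Cdk1, Ccnb1, Top2a and Mki67, and it was close to unrelated to the S-phase score (rho 0.05, CPM). In CPM the rho of the members ran from -0.03 for Chaf1b to 0.34 for Rbbp4, and 0 of the 10 genes reached 0.5 beside 1.02% of the other genes that passed. With the spike-in size factor, 1 gene did, Rbbp4 at 0.56, beside 2.8%. With Pearson correlation on that scale 4 did (Rbbp4, Asf1b, Ssrp1 and Supt16), for which the share over all genes was not determined. The rho of Rbbp4 with the S-phase score was 0.41 on the spike-in scale and 0.27 in CPM.

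Npm1 went with the genes of the nucleolus. With the mean of 10 nucleolar genes such as Ncl, Nop56 and Fbl, Npm1 had a rho of 0.65 in CPM, 1 gene of the 10 reaching 0.5 beside 0.291% of the other genes that passed. Supt16 followed at 0.47 and Nasp at 0.39. With the spike-in size factor, 3 genes (Npm1, Supt16 and Nasp) reached 0.5 beside 3.0%.

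**Figure D4:**
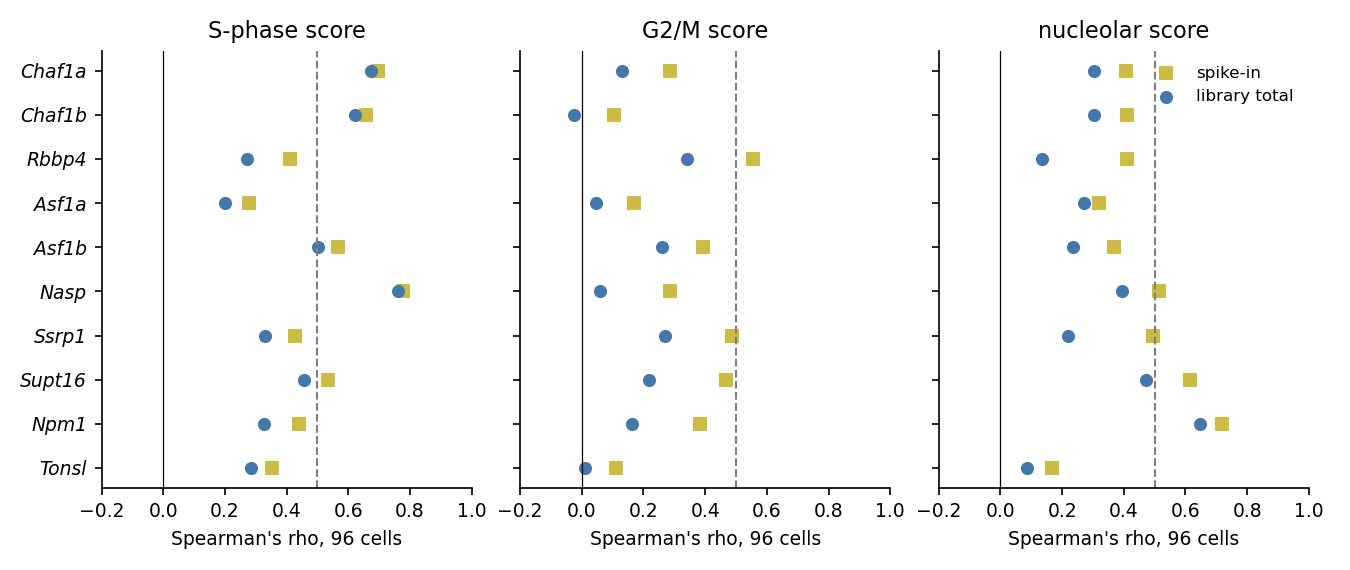
Spearman's rho over 96 cells (horizontal axes) of each histone chaperone gene with the S-phase, G2/M and nucleolar scores, with counts scaled by spike-in RNA (squares) or by library total (circles). The dashed line is 0.5. Nasp, Chaf1a, Chaf1b and Asf1b pass it for the S-phase score on both scales, and Npm1 for the nucleolar score.

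For each member the 3 genes with the highest rho over the 96 cells were taken from all that passed the filter (CPM, members left out), and for Nasp, Chaf1a and Chaf1b these were genes of DNA replication, repair or its upkeep. Nasp lay nearest to the replicative helicase genes Mcm4 (rho 0.69) and Mcm3 (0.68) and to Uhrf1 (0.68), which maintains DNA methylation behind the fork. Chaf1a lay nearest to Clspn (0.64), Uhrf1 (0.64) and Mcm3 (0.63), and Chaf1b to Exo1 (0.60), Mcm5 (0.59) and Pcna (0.59). Asf1b was nearest to Mybl2 (0.55), Lmnb1 (0.54) and Cdca5 (0.51), of which Mybl2 encodes a transcription factor of cycling cells and Cdca5 the cohesion factor sororin. For Supt16 the list was Ppil1 (0.56), Rrm2 (0.53) and U2af1 (0.48), and for Ssrp1 it was Ube2v1 (0.49), Tubg1 (0.45) and Fkbp4 (0.42). Npm1 was nearest to Gm6477 and Gm9118 (0.74 each), processed pseudogenes that share its sequence and may hold its reads, and then to C1qbp (0.71). For Rbbp4, Asf1a and Tonsl the highest rho was 0.43 (Gm5853), 0.41 (Txnl1) and 0.40 (Baz1b).

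Differences between sisters in the members and in the S-phase score were also set side by side. The sister with the higher score had the higher CPM of Chaf1a in 32 of 48 pairs, of Nasp and of Asf1b in 31 each, and of Npm1 in 29. For Ssrp1, Rbbp4, Asf1a, Supt16 and Chaf1b it was 23 to 25 pairs, and for Tonsl 16, with 24 the other way. Some of the Tonsl directions rest on a few reads, since both sisters had fewer than 10 Tonsl counts in 19 pairs. The correlation of the sister differences, taken about zero, was 0.56 for Nasp, 0.42 for Supt16, 0.40 for Asf1b, 0.38 for Chaf1a and 0.36 for both Rbbp4 and Ssrp1. It was 0.23 for Chaf1b, 0.12 for Npm1, -0.09 for Tonsl and -0.11 for Asf1a, beside a median of 0.01 over genes. Without the pair numbered 46, in which the members were higher in the same sister, it was 0.51 for Nasp, 0.33 for Chaf1a, 0.31 for Supt16, 0.28 for Asf1b, 0.24 for Rbbp4 and 0.18 for Ssrp1. The S-phase score itself was largely shared by sisters, with an intraclass correlation of 0.74 in CPM.

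The correlations among the members varied, from -0.07 to 0.61 in CPM. Over the 45 combinations of 2 members, the median rho over 96 cells was 0.34 with the spike-in size factor and 0.23 in CPM. It was above 0 in all 45 with the spike-in size factor and in 42 in CPM. It reached 0.5 in 11 combinations with the spike-in size factor and in 2 in CPM. Values for combinations of other genes are not set beside these, so they cannot be read as high or low. The highest CPM values were those of Chaf1a with Nasp (0.61), Chaf1b with Nasp (0.56), Chaf1b with Asf1b (0.49) and Chaf1a with Chaf1b (0.49). Rbbp4, the other CAF-1 subunit gene, had a rho of 0.07 with Chaf1a and 0.24 with Chaf1b. The FACT genes Ssrp1 and Supt16 had a rho of 0.43 on the spike-in scale, where total RNA enters, and of 0.03 in CPM. Asf1a and Asf1b had a rho of 0.17 in CPM. The combinations within CAF-1 and within FACT were not the highest of the 45.

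Between sisters, 2 members went the same way about as often as opposite ways by direction alone. The size of the differences also entered their correlation about zero. In CPM this ran from -0.35 for Chaf1b with Asf1a to 0.46 for Chaf1a with Supt16. The same sister was higher in both of 2 members in a median of 24 of 48 pairs on either scale, from 12 to 34 with spike-in values and from 14 to 31 in CPM. Both CAF-1 genes Chaf1a and Chaf1b were higher in the same sister in 21 pairs in CPM, or 43.8% (interval 29.5% to 58.8%), and both FACT genes in 18 pairs, or 37.5% (interval 24.0% to 52.6%). The most pairs in CPM, 31, were those of Rbbp4 with Supt16, or 64.6% (interval 49.5% to 77.8%). The fewest, 14, were those of Chaf1b with Tonsl, while 26 pairs went opposite ways and the other 8 had no Tonsl count in either sister. Both sisters had fewer than 10 Tonsl counts in 19 pairs, so some of these directions rest on a few reads.

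**Figure D5:**
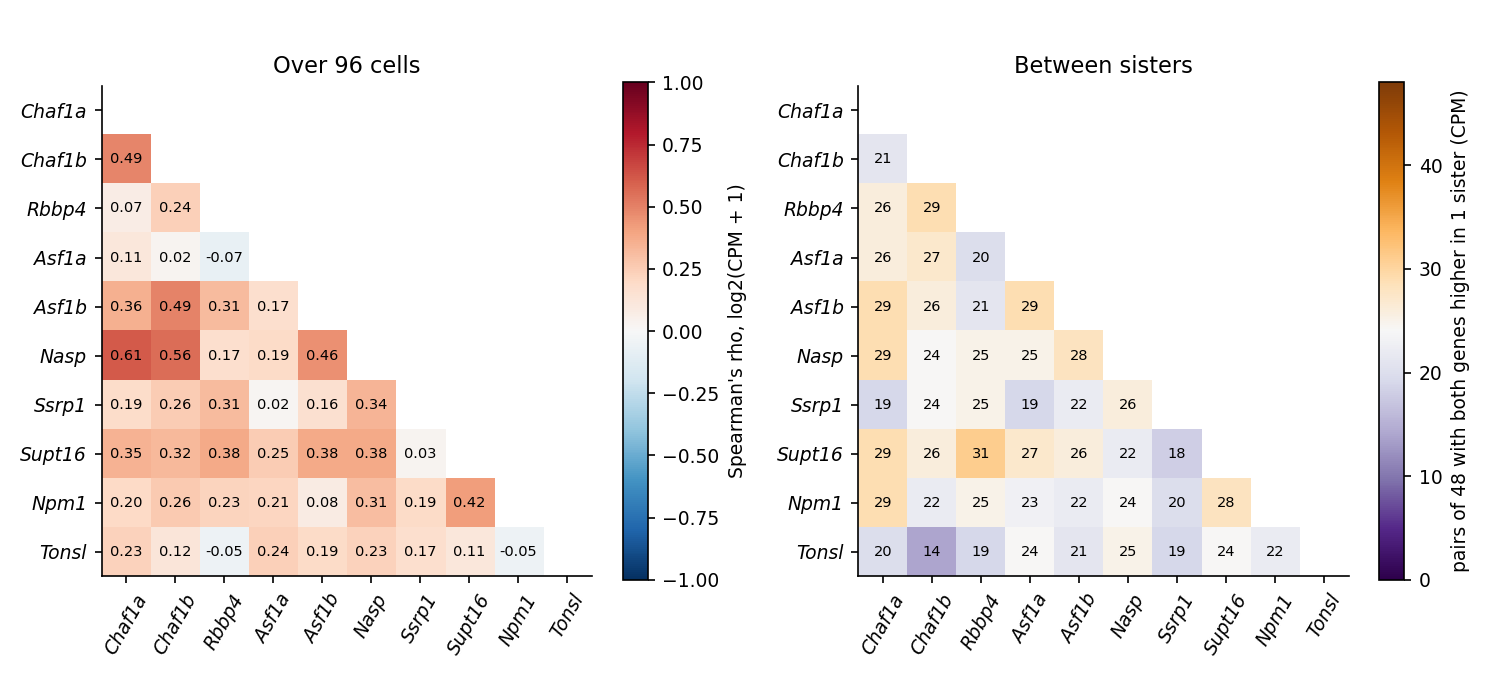
The 45 combinations of 2 histone chaperone genes, in CPM. The left panel gives Spearman's rho over 96 cells and the right panel the number of 48 pairs in which both genes were higher in the same sister, both with the value in each square and a colour bar. Chaf1a with Nasp has the highest rho (0.61), yet was higher in the same sister in 29 pairs.

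In the pair numbered 46, chosen here after its values were seen, all 10 genes were higher in daughter 2, Tonsl by 4 counts against 0. In the pair numbered 38, the 9 genes other than Tonsl, which had no count in either sister, were all higher in daughter 1. Counts of Asf1b in the pair numbered 46 were 21 in daughter 1 and 2439 in daughter 2. In the same order, those of Rbbp4 were 970 and 6832, and those of Nasp 1021 and 4454. Counts of Chaf1a were 768 and 3590, those of Ssrp1 5121 and 19806, and those of Supt16 2416 and 9447. Npm1 was nearly level, at 20769 and 22001 counts. In spike-in-normalized counts daughter 2 was 8.71-fold higher for Rbbp4, 5.78-fold for Chaf1a, 5.40-fold for Nasp and 4.79-fold for Ssrp1, and 1.31-fold for Npm1, beside a median ratio of 1.29 over genes with 10 or more counts in both cells. The same daughter had 18101 counts of the proliferation marker Mki67 against 64 in its sister, and 37 counts of the basal cell factor Trp63 against 19637. The pair numbered 46 had the widest gap of all 48 in both the S-phase score (3.34) and the G2/M score (5.13).

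Other genes of histone supply and of histone placement outside replication were set against the same S-phase score. Of 12 partner genes, such as Hat1, which encodes the acetyltransferase of new H4, and the ASF1 kinase genes Tlk1 and Tlk2, 1 reached a rho of 0.5 in CPM, as did 0.499% of all genes tested. This was Mms22l (0.57), whose protein binds TONSL, while Tonsl itself was at 0.28. Hat1 was at 0.44, the Rbbp4 relative Rbbp7 at 0.35 and Tlk2 at -0.03. Of 7 genes of replication-independent chaperones, 0 reached 0.5, with values from -0.11 for Ubn2 to 0.33 for Ubn1 and 0.15 for Hira. The ranges overlapped, from -0.03 to 0.57 for the partner genes and from 0.20 to 0.76 for the members, and the difference between the lists was not tested. The medians of rho with the S-phase score were 0.24 over the 12 partner genes, 0.16 over the 7 replication-independent genes and 0.39 over the 10 members, beside 0.03 over all genes tested.

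In CPM the members were at most weakly related to the H3.3 genes, which encode the H3 form that is placed outside of replication. In CPM the rho of the members with H3f3a ran from -0.09 for Ssrp1 to 0.17 for Asf1a, and with H3f3b from -0.14 for Tonsl to 0.32 for Npm1. On the spike-in scale, where a cell with more RNA is higher in most genes, the same values ran up to 0.47 for Npm1 with H3f3a and to 0.53 for Npm1 with H3f3b. With the mean of both H3.3 genes, rho on that scale ran from 0.13 for Chaf1b to 0.57 for Npm1, beside a median of 0.21 over genes. In CPM it ran from -0.10 for Tonsl to 0.24 for Nasp, beside 0.01.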

How the data were processed

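RNA of 96 single cells (48 sister pairs, 1 condition) was analysed. The deposited counts are whole reads per gene that the authors obtained by trimming (Trimmomatic 0.39), alignment to GRCm38 with ERCC sequences (STAR 2.7.11a) and StringTie 2.2.1 on Ensembl release 100, and the deposited TPM values came from the same step, as a share of transcripts corrected for length. Only reads with both mates were used, and no strand setting is stated. Every count column was used.

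Counts were divided by spike-in size factors (median of ratios, from 22 ERCC transcripts with a count in every cell) or by the library total (CPM). Python 3.11.15, numpy 2.4.6, pandas 2.3.3, scipy 1.17.1 and matplotlib 3.10.9 were used. Log values took a pseudocount of 1. The background was the 14463 genes that reached 10 counts in 10% of the cells. Correlations are Spearman's rho, no test was run, and the calculations were tested on simulated data. No doublet caller was run, since cells were picked by hand. Shared exon bases and 100-base stretches were read from GENCODE M21. Named genes were the 10 members, genes of the lists and the 3 genes nearest to each member. The members and lists were chosen with earlier results of these data known, and the limits of 0.5 and of 24 pairs were set after values were seen. Alternatives were 4 other scalings or units, a pseudocount of 10, a 2-fold cutoff, Pearson correlation, centring within sets, other filters, and the data without the pair numbered 46, the last chosen after seeing the data.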

Additional observations from a re-analysis of the deposited data

How the results depend on the processing

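Of the summary values under all alternatives, 47 stayed within the spread over the members (or, for counts, within 1.5 times) and 5 did not. The median number of pairs in which a member differed was 27.0 at 1.5-fold and 15.5 at 2-fold. The median rho with the G2/M score was 0.33 with the spike-in size factor and 0.15 with the library total, 0.10 with the median of ratios over genes and 0.13 in TPM. Without a filter other than 1 count in 1 cell, 32924 genes passed in place of 14463, by construction. For single members, 305 values stayed within that spread and 35 moved. Of these values, 7 changed sign, all of them small: the intraclass correlation of Rbbp4 (0.179, and -0.04 with the library total, -0.10 with the median of ratios over genes and -0.09 in TPM), and the rho with the G2/M score of Chaf1b under the same 3 settings and of Tonsl after centring within sets. With the median of ratios over genes, 3 members (Chaf1a, Chaf1b and Nasp) reached a rho of 0.5 with the S-phase score, and Asf1b did not. With Pearson correlation 7 members did, and 4 did with the G2/M score. The share of all genes that reach 0.5 under these settings was not determined. The cause was not tested. With TPM of at least 1 in place of 1 count, 4 members were detected in all cells. No paired analysis was possible because 1 group leaves no comparison between groups for replicate numbers to pair, while the labelled sister pairs entered every value between sisters. Ratios between sisters rest on 1 library per cell, and a count of 0 does not show that a transcript was absent.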
